A study of Mus musculus with 44 samples.

Results

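The granins and the enzymes that cut and trim their cargo were followed in the ribosome-bound mRNA of hippocampal neurons of mice with or without early-life exercise (ELE). The members were 10 named genes of 55335 in the count table, found by matching each Ensembl identifier to its symbol in the GENCODE annotation of GRCm38: *Chga*, *Chgb*, *Scg2*, *Scg3*, *Scg5*, *Vgf*, *Pcsk1*, *Pcsk2*, *Pcsk1n* and *Cpe*. The family was chosen by its function and by 1 set of measured values, the ELE contrast of the right hippocampus, in which *Chgb* was called, so every right-sided difference below is a description and carries no test. All 20 libraries came from Emx1-NuTRAP mice, in which Cre driven from the *Emx1* locus switches on a tagged ribosome and a tagged nuclear envelope. *Emx1* marks a lineage of mostly excitatory neurons that also holds some astrocytes and other glia, so the tag follows a lineage and not 1 cell type. ELE mice had a running wheel from postnatal day 21 to 41, and sedentary mice had none. The simultaneous protocol (SIT) took RNA and nuclei from both hippocampi of a mouse, in 4 ELE and 4 sedentary libraries. In the separate isolation only the left or only the right hippocampus gave RNA, with 3 ELE and 3 sedentary libraries on each side, and left and right libraries came from different mice. Libraries are named here by group and by the mouse number at the head of each column.

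Granins are acidic proteins that crowd into dense-core vesicles, the organelles from which neurons and endocrine cells release peptides. Several granins are themselves precursors of peptides. Inside the vesicle, prohormone convertases cut precursors after pairs of basic residues, and a carboxypeptidase then trims the residues left at the cut end. In hippocampal neurons the same vesicles carry neuropeptides and neurotrophins, and some granin genes, *Vgf* and *Scg2* among them, are known to respond to neuronal activity.

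Each library held between 45895097 and 65767802 counts, so counting error was small beside the spread between mice. The labelled cells carried their markers: the summed level of 6 excitatory neuron markers ran from 6122 to 9395 CPM (counts scaled to library size, as edgeR gives them), and *Slc17a7*, the main vesicular glutamate transporter of these cells, never fell below 2822 CPM. The 5 listed genes of chromaffin cells, where granins were first described, summed to 2.48 to 6.77 CPM. Of these *Th* was at 0.89 CPM or less, *Pnmt* at 0.68 and *Slc18a1* at 0.43, whereas *Dbh* reached 4.13 CPM and *Ddc* 3.30 CPM. Astrocyte and oligodendrocyte markers were present in every library. The SIT contrast used the 3 ELE and 2 sedentary libraries that the study kept. The 3 it set aside were ELE mouse NT6.304 and the sedentary pair numbered NT7.2. In that pair, NT7.2.3 and NT7.2.4, mitochondrial genes took 8.64% and 9.64% of counts, against at most 0.52% elsewhere, and interneuron markers summed to 844 and 883 CPM, against at most 109 CPM elsewhere. The kept SIT ELE mice were NT6.303, TG7.4.1 and TG7.4.2 and the kept sedentary mice NT6.305 and NT6.306, so mouse series and exercise overlap in part in that contrast.

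The 10 genes spanned a wide range of levels. In the 6 separately isolated sedentary libraries, *Cpe*, the carboxypeptidase that trims cut peptide ends, was highest at 1378 ± 71.1 CPM per kb of exon (SD, n = 6). *Pcsk1n*, whose product proSAAS inhibits the convertase encoded by *Pcsk1*, followed at 503 ± 31.1 CPM per kb. *Chgb*, chromogranin B, came next at 261 ± 20.5 CPM per kb. These levels did not overlap between neighbours in the order, library by library. *Vgf*, a granin-like precursor of several peptides, and *Scg3*, secretogranin III, which holds granin aggregates to the vesicle membrane, lay lower at 101 ± 15.7 and 98.3 ± 9.34 CPM per kb. They were not separable: *Vgf* was the higher of the pair in only 2 of 6 libraries.

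*Scg2*, secretogranin II, had 68.2 ± 5.45 CPM per kb and *Scg5*, a chaperone of the convertase encoded by *Pcsk2*, had 57.5 ± 4.04 CPM per kb. Their ranges overlapped, but *Scg2* was the higher in 6 of 6 libraries. Per kb of the longest transcript instead, *Scg5* at 74.6 came above *Scg2* at 68.2 CPM, and *Scg3* at 113 above *Vgf* at 106 CPM. *Chga*, chromogranin A, had 45.3 ± 21.3 CPM per kb and overlapped *Scg5*, because 1 library held 88.6 CPM per kb. The convertases were the lowest, *Pcsk2* at 28.7 ± 1.503 and *Pcsk1* at 1.868 ± 0.148 CPM per kb, and neither overlapped its neighbour. Over all 20 libraries *Cpe*, *Pcsk1n* and *Chgb* exceeded at least 99.4% of the genes that passed the filter, whereas *Pcsk1* exceeded 52.4%. *Cpe*, *Pcsk1n* and *Chgb* held the first 3 places and *Pcsk2* and *Pcsk1* the last places in each of the 6 groups. In between the order varied with the group.

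**Figure D1:**
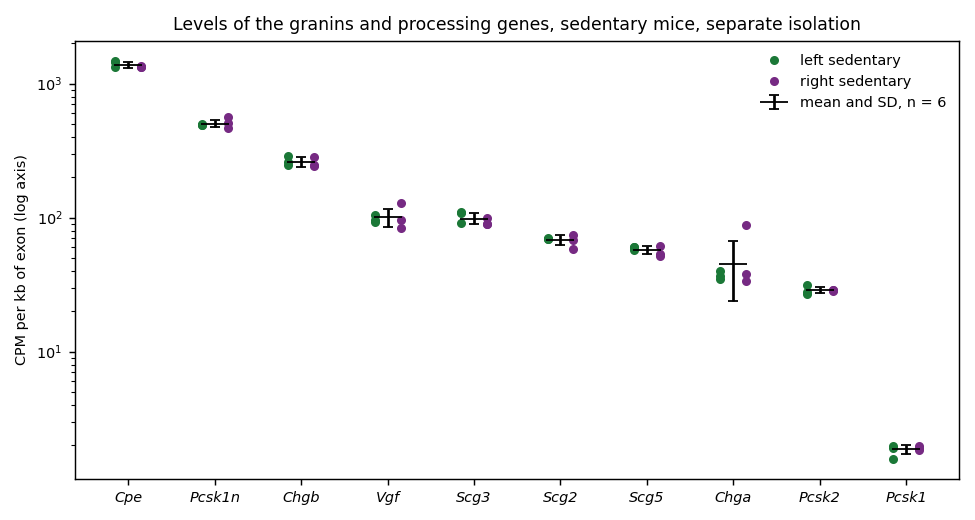
Levels of the 10 genes in CPM per kb of exon, on a log axis, in the separately isolated sedentary libraries of the left (green) and right (purple) hippocampus. Points are libraries and bars the mean and SD over 6 libraries; *Cpe* stands at 1378 and *Pcsk1* at 1.868 CPM per kb, and 1 right library lifts the *Chga* mean.

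The genes also differed in how steady they were. Over the 20 libraries the coefficient of variation was 7.94% for *Pcsk2*, and only 3.81% of 11183 genes averaging 5 CPM or more varied less; their median was 15.5%. *Cpe* and *Pcsk1n* varied by 12.6% and 13.6%. *Chga* was the most variable member at 69.9%, followed by *Scg2* at 48.1%, *Pcsk1* at 44.2% and *Vgf* at 39.1%. *Chga* varied more than 98.6% of those genes. Much of this came from ELE mouse NT6.304, described below: over the other 19 libraries the values were 44.6% for *Chga*, 31.6% for *Pcsk1*, 20.6% for *Vgf* and 11.9% for *Scg2*, with a median over genes of 14.8%.

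Promoter windows are shown for *Chgb*, *Scg2*, *Pcsk1* and *Chga*, the members found to hold a full or variant form of the cAMP response element (CRE). CREB-family factors bind this site. The windows were picked by these letters. RefSeq promoters, reaching from 250 bases before to 50 bases after the start, were matched for 8 of the 10 members (not *Vgf* or *Cpe*). Only the 250 bases before the start were searched, here and in all other promoters. The full palindrome TGACGTCA lay in 3 of these 8, and in 1.55% of 32851 mouse promoters of the same length. The form TGACGTAA was searched because it is the one known from *Chga*, so its presence there is no finding; it lay in 0.447% of promoters. The short core TGACG, searched on both strands and contained in both longer forms, lay in 7 of the 8 and in 17.8% of all promoters. The windows below are on the gene strand of GRCm38.p6, with the match in capitals.
Chgb, chr2:132781559-132781588: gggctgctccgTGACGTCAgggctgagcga
Scg2, chr1:79440076-79440105: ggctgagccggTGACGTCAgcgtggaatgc
Pcsk1, chr13:75089768-75089797: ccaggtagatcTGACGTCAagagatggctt
Chga, chr12:102554886-102554915: gggcggtcctaTGACGTAAtttcctgggtg
The matches began 72 bases before the RefSeq start in *Chgb*, 68 in *Scg2*, 78 in *Pcsk1* and 44 in *Chga*. The *Chgb* and *Scg2* windows lie inside the longer gene models of GENCODE. A match of letters says nothing about binding.

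*Chgb* was called with ELE on the right, the contrast that chose it, and its libraries overlapped between groups on the left and in SIT. In the right hippocampus the ELE libraries held 961, 926 and 944 CPM and the sedentary libraries 778, 676 and 662 CPM, so the groups did not overlap. This was a log2 fold change of 0.42 (SE 0.09), or 1.34-fold, and it made *Chgb* the only member past the study's call rule on this side, an unadjusted p under 0.05 with a change above 1.31-fold. By that rule 1.97% of 17570 genes tested were called on the right, and 0.746% of the genes tested were called higher. The right-sided values chose *Chgb*. Without sedentary mouse TG9.1.1 the value was 0.39 and without TG9.2.3 it was 0.38, both under the fold threshold. In the left hippocampus, in other mice, ELE libraries held 720.3, 997 and 921 CPM and sedentary libraries 672, 789.5 and 710.0 CPM. The lowest ELE library lay within the sedentary range. The left log2 fold change was 0.28 (SE 0.12, 95% interval -0.01 to 0.56), with an unadjusted edgeR p of 0.0537 and an adjusted p of 0.960. Without ELE mouse TG7.3.2 it was 0.40 and called, and without TG9.1.4 it was 0.18.

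In the SIT libraries *Chgb* stood at 838, 705 and 750.4 CPM with ELE and at 611 and 729.8 CPM in sedentary mice, which overlap. The log2 fold change was 0.19 (SE 0.10, 95% interval -0.04 to 0.42), with an unadjusted edgeR p of 0.102 and an adjusted p of 0.945. Both intervals include 0. The SIT value was 0.07 without sedentary mouse NT6.305 and 0.32 without NT6.306, and in neither case was it called. With all 8 SIT libraries, ELE mouse NT6.304 among them at 1286 CPM, the change was 0.42 and *Chgb* was called. With that library alone taken out of the 8 it was 0.18 and not called. Among NT6 mice alone, 2 against 2 and again with NT6.304, it was 0.67 and called.

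**Figure D2:**
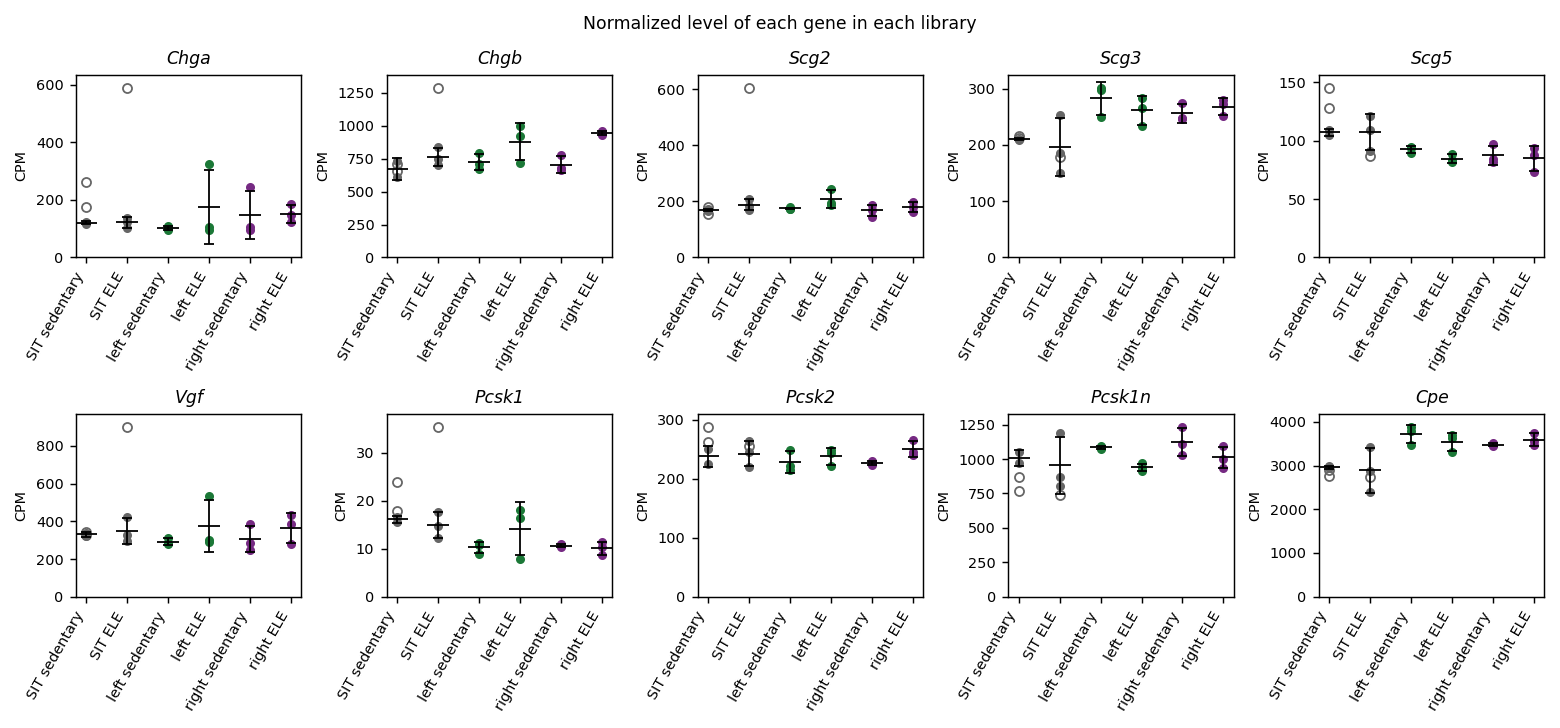
CPM of each gene in each library, by isolation and group, with SIT in grey, left in green and right in purple. Open points are the 3 SIT libraries the study set aside, and bars give the mean and SD of the others; right ELE *Chgb* (926 to 961 CPM) lies above right sedentary (662 to 778 CPM), and the open ELE point of mouse NT6.304 tops *Chga*, *Chgb*, *Scg2*, *Vgf* and *Pcsk1*.

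Of the 10 members, 0 passed the call rule in the SIT contrast, where 3.65% of 18238 genes did, and 0 in the left contrast, where 2.07% of 17750 genes did. On the left 2 members, *Scg2* and *Pcsk1n*, had an unadjusted edgeR p under 0.05 whatever the fold, as did 3.94% of genes, and by DESeq2 3 did, *Chgb* the third. No gene passed an adjusted p of 0.05 by edgeR in either contrast, while 1000 and 699 genes had an unadjusted p under 0.05. DESeq2 gave 14 adjusted calls in SIT and 0 on the left, with 1153 and 808 genes at an unadjusted p under 0.05, and no member among its adjusted calls. On the left, 3 members had libraries that did not overlap, *Scg2* higher and *Scg5* and *Pcsk1n* lower with ELE, where 10.8% of genes did not overlap. In SIT 0 members did, against 22.1% of genes.

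Among the other granins, *Scg2* was higher in the left ELE libraries, at 187, 244 and 194 CPM, than in the sedentary ones, at 174, 178 and 174 CPM. The groups did not overlap, by a narrow margin. The log2 fold change was 0.25 (SE 0.11), with an unadjusted edgeR p of 0.0473 and an adjusted p of 0.960, and the change was below the fold threshold. Without ELE mouse TG9.1.4 it was 0.11. On the right the ELE libraries held 196, 179 and 161 CPM and the sedentary ones 186, 170.1 and 146 CPM, a difference of 0.10 on the log2 scale. In SIT the *Scg2* log2 fold change was 0.15 (SE 0.11), and 0.06 without ELE mouse NT6.303.

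*Chga* had the widest left-sided value, a log2 fold change of 0.77 (SE 0.42, 95% interval -0.18 to 1.73) with an unadjusted edgeR p of 0.0994 and an adjusted p of 0.960. It came from 1 library: the left ELE libraries held 106, 325 and 95.3 CPM, where sedentary ones held 95.7, 110.0 and 101 CPM. Without mouse TG9.1.4, the library at 325 CPM, the log2 fold change was -0.03. On the right a sedentary library did the same, with 104, 244 and 93.5 CPM against 122, 148 and 185 CPM with ELE. The right difference of 0.05 on the log2 scale became 0.61 without that sedentary mouse, TG9.1.1. The summed level of 5 astrocyte markers was 5017 CPM in TG9.1.4 and 5071 CPM in TG9.1.1, against 2241 to 3118 CPM in the other left libraries. In the right ELE library with the most *Chga*, TG9.2.1, it was 4480 CPM, and 2577 to 2735 CPM in the remaining right libraries. Most of the excess was *Gfap*, the astrocyte filament gene, at 3905 CPM in TG9.1.4, 4061 in TG9.1.1 and 3335 in TG9.2.1, while the other 4 markers together lay between 983 and 1259 CPM in all 12 libraries. Among the 8 SIT libraries NT6.304 had the most *Chga*, 588 CPM, with the highest *Gfap* and astrocyte sum, 3230 and 3802 CPM, whereas NT7.2.3 and NT7.2.4 held 263 and 174 CPM of *Chga* with sums of 2501 and 1510 CPM, the latter the lowest of the 20. The part of these markers in the *Chga* values was not tested.

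For *Vgf* TG9.1.4 was again the highest left library. The left ELE libraries held 301, 534 and 288 CPM and the sedentary ones 278, 314 and 284 CPM, a log2 fold change of 0.36 (SE 0.22) with an unadjusted edgeR p of 0.137. Without TG9.1.4 that value was 0.01. On the right, ELE libraries held 431, 385 and 279 CPM and sedentary ones 286, 385 and 249 CPM, and the difference was 0.25 on the log2 scale. The SIT value was 0.08 (SE 0.14).

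*Scg3*, which holds granin aggregates, and *Scg5*, the convertase chaperone, had no call with ELE. The *Scg3* log2 fold change was -0.10 in SIT, -0.12 on the left and 0.07 on the right. *Scg5* in the left hippocampus was at 88.9, 83.2 and 81.6 CPM with ELE and at 94.9, 89.3 and 94.2 CPM without, and its groups did not overlap. That difference, -0.14 (SE 0.07), had an unadjusted edgeR p of 0.0936.

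Among the processing genes, *Pcsk1n* had the lowest left-sided p. It stood at 968, 914 and 938 CPM in left ELE libraries and at 1082, 1096 and 1074 CPM in sedentary ones, without overlap. The log2 fold change was -0.21 (SE 0.06, 95% interval -0.35 to -0.07), with an unadjusted edgeR p of 0.00927 and an adjusted p of 0.960. The decrease was below the fold threshold, and leaving out any 1 left library gave -0.23 to -0.19. The difference was -0.15 on the right, where ELE libraries at 938, 1096 and 1001 CPM overlapped sedentary ones at 1230, 1113 and 1027 CPM. In SIT it was -0.08 (SE 0.14).

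Neither convertase gene was called. *Pcsk1* had 16.5, 18.1 and 7.85 CPM in left ELE libraries and 8.88, 11.1 and 10.8 CPM in sedentary ones, so that the ELE group held both the highest and the lowest library. Its log2 fold change of 0.46 (SE 0.28) had an unadjusted edgeR p of 0.142. Without the lowest ELE library, TG9.2.2, the change was 0.75 and *Pcsk1*, *Chga* and *Vgf* were all called, with TG9.1.4 then 1 of only 2 ELE libraries. *Pcsk2* differed by 0.06 on the left and 0.03 in SIT. On the right its libraries did not overlap, at 239.6, 245 and 266 CPM with ELE and 227, 223 and 229 CPM without, where 7.69% of genes did not overlap. *Pcsk2* and *Chgb* were the 2 members that did not. *Cpe* differed by -0.07 on the left, 0.05 on the right and -0.03 in SIT.

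The median log2 fold change of the 10 members was 0.01 in SIT, 0.15 on the left and 0.06 on the right. Over all genes tested the median was 0.00, 0.00 and -0.01. Without TG9.1.4 the left median of the members was -0.01. The left minus right difference in the ELE effect, taken as an interaction over the 12 separately isolated libraries, was -0.14 for *Chgb* (SE 0.16, 95% interval -0.48 to 0.19). It was 0.73 for *Chga* (SE 0.60) and 0.53 for *Pcsk1* (SE 0.34). By the call rule 0 members passed, where 2.20% of 18810 genes did, and since the interaction holds the right contrast these values are descriptions. An ELE effect on *Chgb* that differed between the sides was not shown.

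**Figure D3:**
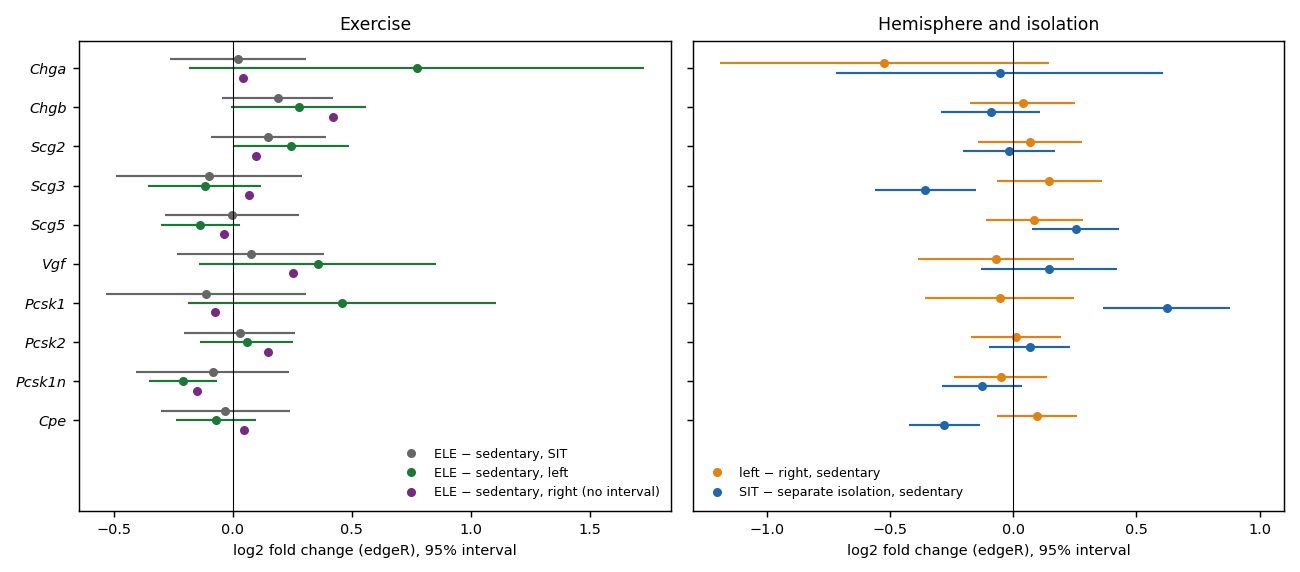
Log2 fold changes of the 10 genes by edgeR; lines are 95% intervals, and the right ELE contrast is drawn as points only because it chose the family. *Chgb* lies at 0.19 in SIT and 0.28 on the left, both with intervals that include 0, and at 0.42 on the right; *Pcsk1* lies at 0.62 in SIT against separate isolation.

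A single library decided much of the spread. ELE mouse NT6.304, which the study set aside, was the highest of the 20 libraries for 5 of the 10 members; of 11183 genes averaging 5 CPM or more, 17% were highest in it. *Scg2* was at 604 CPM there, where the other 19 libraries ran from 146 to 244 CPM. *Chga* was at 588 CPM (others 93.5 to 325), *Vgf* at 899 CPM (others 249 to 534), *Chgb* at 1286 CPM (others 611 to 997) and *Pcsk1* at 35.3 CPM (others 7.85 to 23.9). The same library had the lowest *Pcsk1n* of the 20, 738 CPM. *Pcsk2* and *Cpe* stayed inside the range of the rest.

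Of 31 cargo genes measured, 8 were highest in NT6.304 and 10 in NT7.2.4, the sedentary SIT mouse with high interneuron markers, where 12.4% and 12.1% of all 19935 genes with a CPM value were. Neuropeptide Y, *Npy*, was at 776 CPM with a median of 4.11 CPM in the others, and *Penk*, the enkephalin precursor, at 681 CPM with a median of 32.9 CPM. *Bdnf*, the brain-derived neurotrophic factor, was at 237 CPM (others 56.7 to 115), and *Nptx2*, an activity-responsive synaptic pentraxin, at 881 CPM (others 62.4 to 315). Left ELE mouse TG9.1.4 came next in these genes, with 297 CPM of *Npy*, 160.4 CPM of *Penk*, 315 CPM of *Nptx2* and 115 CPM of *Bdnf*. Right sedentary mouse TG9.1.1 followed in *Npy* (78.3 CPM) and *Penk* (79.7 CPM). These libraries belong to both treatments. NT6.304 also had the highest summed striatal marker level, 136 CPM against 57.7 to 82.6 CPM, and *Drd1* accounted for 28.1 CPM of it, while its interneuron markers summed to 109 CPM. Its *Gfap* was at 3230 CPM, against 701 to 2469 CPM in the other SIT libraries; the part of these markers in the values above was not tested.

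**Figure D4:**
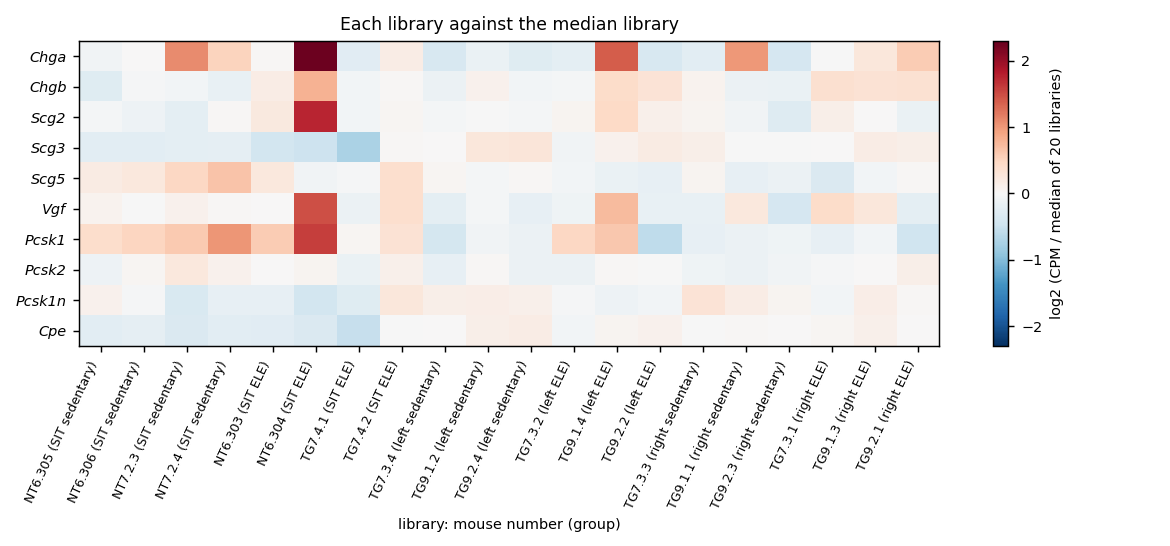
Log2 ratio of each library's CPM to the median of the 20 libraries, for each gene (rows) and library (columns, with mouse number and group); red is above and blue below the median. NT6.304 is the most intense column for *Chga*, *Scg2*, *Vgf* and *Pcsk1*. After it TG9.1.4 is the highest in *Chga* and *Vgf*, and NT7.2.3 and TG9.1.1 are also high in *Chga*.

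Between the left and right hippocampus of sedentary mice 0 members passed the call rule, where 1.68% of 17670 genes did, and 0 had groups that did not overlap, where 7.70% of genes did not. By edgeR no gene passed an adjusted p of 0.05 and 440 had an unadjusted p under 0.05; DESeq2 gave 2 and 584. The largest value was that of *Chga*, -0.52 (95% interval -1.19 to 0.14), with an unadjusted edgeR p of 0.111; without the right mouse TG9.1.1 it was 0.05. *Cpe* differed by 0.10 (95% interval -0.07 to 0.26) and *Pcsk2* by 0.01 (95% interval -0.17 to 0.19). The right sedentary libraries also served in the contrast that chose *Chgb*.

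Between the 2 kept SIT sedentary libraries and the 6 separately isolated ones, *Pcsk1* was the 1 member called, where 15.5% of 18911 genes were called, so the count is no result about the members. It stood at 15.6 and 16.7 CPM in SIT and between 8.88 and 11.1 CPM in the separate libraries, a log2 fold change of 0.62 (SE 0.12) with an adjusted edgeR p of 0.00574. *Cpe* fell by 0.28 on the log2 scale in SIT (SE 0.07), with an adjusted edgeR p of 0.016. It stood at 2936 and 2983 CPM against 3457 to 3873 CPM. *Scg3* fell by 0.36 (SE 0.09), with an adjusted edgeR p of 0.0262, from 245 to 301 CPM in the separate libraries to 211 and 209 CPM. *Scg5* was 0.25 higher in SIT (SE 0.08), with an unadjusted edgeR p of 0.00826 and an adjusted p of 0.0567. Thus 3 members passed an adjusted edgeR p of 0.05, where 13.6% of genes did, and 4 did by DESeq2. These 3 and *Scg5*, 4 in all, had groups that did not overlap, where 29.7% of genes did not.

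The other 6 members had adjusted p-values of 0.30 or more by edgeR. The 2 SIT libraries of this contrast came from both hippocampi and from mice numbered NT6, the separate sedentary ones from 1 hippocampus and from mice numbered TG7 or TG9, so that method, tissue and mouse series cannot be told apart. Excitatory neuron markers summed to 6122 and 6233 CPM in the SIT pair and 7782 to 9218 CPM in the separate libraries, and interneuron markers to 76.8 and 77.3 CPM against 40.9 to 63.8 CPM; their part in these differences was not tested.

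Further gene lists set the members in their pathway. Of 26 other prohormone processing enzymes tested, 1 was called in SIT and 0 in either separate contrast. Of all genes 3.65% were called in SIT, 2.07% on the left and 1.97% on the right. These counts moved with single libraries: for all genes the SIT count of 665 became 355 without NT6.305 and 1086 without TG7.4.2. The SIT gene was *Pcsk4*, a convertase known from germ cells, at a log2 fold change of -0.99 (SE 0.40) and an adjusted edgeR p of 0.905, and no enzyme was called by DESeq2 or without NT6.303 or NT6.306. Of the genes for dense-core vesicle formation and release, 3 of 44 were called in SIT, 0 of 45 on the left and 1 of 44 on the right. The SIT count was 1 without TG7.4.1, and the right one 0 without TG9.2.3, TG7.3.3 or TG9.2.1. In SIT *Stx1a*, a plasma membrane SNARE, was at -0.39 and the vesicle calcium sensors *Syt9* and *Syt10* at -0.93 and 0.69. On the right *Rab26*, a vesicle GTPase, was at -0.42.

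Of the neuropeptide and neurotrophin cargo genes, 3 of 31 were called in SIT, 3 of 27 on the left and 1 of 28 on the right, against the same 3.65%, 2.07% and 1.97% of all genes. The SIT count was 0 without sedentary mouse NT6.305 or ELE mouse NT6.303, so every SIT cargo call named here was lost without either, and 14 with all 8 libraries. The left count was 7 without TG7.3.2, 5 without TG9.2.2 and 1 without any 1 of the other libraries, and the right one 0 without TG9.2.3. *Bdnf* in SIT was at 108, 89.9 and 92.1 CPM with ELE and at 64.3 and 78.0 CPM without it, or 0.44 on the log2 scale (SE 0.13), with an unadjusted edgeR p of 0.0059 and an adjusted p of 0.905. The left-sided calls were *Npy*, *Trh* and *Pdyn*, and TG9.1.4 was the highest library for *Npy* and *Pdyn*. *Npy* rested on 1 library, at 297 CPM in TG9.1.4 and at 0.77 and 3.27 CPM in the other left ELE libraries. *Pdyn*, the dynorphin precursor, was at 10.7, 23.1 and 9.93 CPM with ELE and at 9.54, 7.65 and 8.23 CPM without, or 0.78 on the log2 scale (SE 0.31), and it was 0.28 and not called without TG9.1.4. *Trh*, the precursor of thyrotropin-releasing hormone, was called in opposite directions on the left and in SIT. On the left it was at 9.16, 8.39 and 0.14 CPM with ELE and at 0.20 CPM or less without, and in SIT at 0.29, 0.04 and 0 CPM with ELE and at 4.73 and 0 CPM without, so that 1 sedentary library set the SIT value of -4.39. *Igf2* was called lower in SIT, at 0.22, 0.55 and 1.02 CPM with ELE and at 3.56 and 1.02 CPM without, and on the right, at 0.28, 0 and 0.11 CPM with ELE and at 0.76, 0.44 and 1.63 CPM without. Choroid plexus, a known source of *Igf2*, had marker genes called lower in the same contrasts, *Folr1* and *Kl* in SIT and *Ttr*, *Aqp1*, *Folr1* and *Kl* on the right. The 5 markers summed to 124 to 565 CPM with ELE and 566 to 656 CPM without in SIT, and to 17.3 to 41.4 CPM with ELE and 33.7 to 1137 CPM without on the right; their part in the *Igf2* values was not tested. The list medians in the 3 ELE contrasts were 0.06, 0.01 and 0.02 for the enzymes, 0.01, 0.04 and 0.03 for the vesicle genes, and -0.16, 0.17 and -0.05 for the cargo.

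Between the isolation methods 15.5% of all genes were called. Of the 26 enzymes 1 was higher and 6 lower in SIT, with *Nrd1* at -0.45, *Furin*, the ubiquitous convertase of the secretory pathway, at -0.54, *Pcsk6* at -0.68 and *Aebp1* at -0.68. Of the 45 vesicle genes 6 were higher and 5 lower. *Ptprn2*, a dense-core vesicle membrane protein, was at -0.60 and the vesicle motor *Kif1a* at -0.49, whereas *Snap25* and *Stx1a*, both of the release machinery, were at 0.48 and 0.41. Of 31 cargo genes 7 were higher and 0 lower (3 called without NT6.305), with *Nppc* at 0.92 and *Adcyap1* at 1.33. All the listed interneuron markers were called higher in the same contrast, *Slc32a1* most at 1.51. The called cargo genes *Sst* and *Vip*, at 0.80 and 1.15, are themselves among these markers. Their part in the cargo values was not tested.

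The genes whose log2 CPM followed *Chgb* most closely over the 12 separately isolated libraries, among 9568 genes averaging 10 CPM or more, were *Adora1* (Pearson r of 0.93, Spearman rho of 0.86), *Brinp1* (0.93 and 0.86), *Sema7a* (0.92 and 0.88), *Kpnb1* (0.90 and 0.83) and *Ap2b1* (0.87 and 0.89). *Adora1* encodes an adenosine receptor and *Ap2b1* a clathrin adaptor subunit. Of the members *Pcsk2* was closest, with an r of 0.82, followed by *Scg2* at 0.60, *Vgf* at 0.57 and *Chga* at 0.41. *Scg5* and *Pcsk1n* ran the other way, at -0.34 and -0.51. The 12 points share treatment groups and include the right libraries whose values chose *Chgb*. The correlations therefore describe the libraries and carry no test.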

How the data were processed

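RNA bound to tagged ribosomes was sequenced in 20 Emx1-NuTRAP libraries. Per the study's methods, the authors aligned reads with STAR 2.7.3a to GRCm38.p6, removed duplicates with Picard 1.87, and counted read pairs per gene over exons with strand used. The deposited values are these raw counts, not normalized. GEO labels do not carry the mouse numbers that head the columns, so columns were tied to groups through the study's table of individual mice; label replicate numbers could not be tied to columns. A second table, with 24 columns that match no label, was not used. The 5 kept SIT libraries were found as the only subset that matched the study's listed means.

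Counts were filtered with edgeR 4.0.16 (filterByExpr), scaled by TMM and tested with its quasi-likelihood test in R 4.3.3, with Benjamini-Hochberg adjustment over all genes tested. DESeq2 1.42.0, other scaling, no filter, other library sets and leaving out each library were alternatives. CPM values use TMM over all 20 libraries; levels are divided by the union of a gene's exons in kb. The call rule, an unadjusted p under 0.05 and a change above 1.31-fold, follows the study's methods. Depth leaves counting error far below the spread between mice, and pairs of libraries of 1 group differed by at least 18.9 chi-square units per gene. So no library repeated another of its own group; pairs across groups were not compared. The scripts were tested on simulated data. They missed too many changed genes of low count in the SIT design for the recovery first required, which was then required only of genes over 100 mean counts, as all members are; calls among low-count genes such as *Trh* and *Igf2* are therefore less complete. *Pcsk2* shares exons with antisense genes and *Pcsk1n* with *Eras* on the opposite strand. Named genes outside the family were up to 4 called genes of smallest p in each list, and 5 genes most like *Chgb*; cargo genes and markers of libraries that stood apart were named after their values were seen. The members and lists were chosen with earlier results of these data known.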

Additional observations from a re-analysis of the deposited data

Results flagged for a closer look

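Among 20 combinations of a member with a SIT group of 4 libraries, 2 held an outlying library. Its gap to the nearest neighbour took up more of the group's range than Dixon's 95% limit for 4 samples. The members share the same libraries, so the combinations are not independent and no chance rate applies. Both flags were ELE mouse NT6.304, which the study had already set aside after its own principal component analysis. *Chga* was at 588 CPM there and *Scg2* at 604 CPM, with gaps of 0.93 and 0.91 of the range. The groups of 3 libraries were not examined in this way, so the high *Chga* of mice TG9.1.4 and TG9.1.1 was not put to it. No member had an adjusted p under 0.05 for a difference between the left and right ELE effects, or groups that separated in opposite directions on the 2 sides.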

How the results depend on the processing

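Most single values kept their direction and their side of the call rule: 103 of 110 recalculated values did in the left contrast and 94 of 120 in SIT. Right-sided values carry no test and were not counted in this way. The count of members called changed with the libraries used. In SIT it rose from 0 to 2 with all 8 libraries and also with the NT6 mice alone, *Chgb* and *Scg2* each time. On the left it was 2 without the fold threshold (*Scg2* and *Pcsk1n*), 1 with no filter on low counts (*Chga*), and 0 to 3 when each library was left out in turn. On the right it was 0 to 2 when each was left out, with *Chgb* under the fold threshold at 0.38 without sedentary mouse TG9.2.3 and at 0.39 without TG9.1.1, and 3 without both TG9.1 mice, where *Chga* and *Vgf* joined *Chgb*. In the interaction and in the left against right contrast it was 1 with no filter, and 0 to 1 when each library was left out. Between isolation methods it was 2 with all 4 SIT sedentary libraries, when *Scg5* joined *Pcsk1*. The fits without the TG9.1 mice, the one without NT6.304 and the block below were added after seeing the data.

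Directions turned mainly in SIT, where values lay near 0. *Scg5* became 0.0012 by DESeq2, 0.00093 with size factors and 0.00071 with no filter. *Pcsk1* became 0.12 with all 8 libraries, 0.72 with the NT6 mice alone and 0.32 without the high mitochondrial pair, and *Pcsk2* became -0.046 with all 8. With NT6.304 alone left out of the 8, *Chga* was -0.46, *Pcsk2* -0.070, *Pcsk1n* 0.065 and *Cpe* 0.0071. When each SIT library was left out in turn the log2 fold change ran from 0.067 to 0.32 for *Chgb* and from 0.062 to 0.22 for *Scg2*, neither turning, and from -0.081 to 0.13 for *Chga*, -0.32 to 0.061 for *Scg3*, -0.099 to 0.11 for *Scg5*, -0.092 to 0.18 for *Vgf*, -0.26 to 0.015 for *Pcsk1*, -0.043 to 0.11 for *Pcsk2*, -0.27 to 0.024 for *Pcsk1n* and -0.17 to 0.092 for *Cpe*. The left *Chga* value ran from -0.030 to 1.07, its interaction from -0.077 to 1.02, and its left against right value from -0.77 to 0.052. For *Pcsk2* the left against right value ran from -0.057 to 0.055. The cause of these turns was not tested.

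The label replicate numbers are not on the columns, so the planned pairing by them could not be run. A block by the first part of the mouse number gave a left *Chgb* change of 0.27 and a right one of 0.43. It gave the same number of members called in each contrast. ELE and sedentary mice with the same first part correlated from 0.02 to 0.20 on the left and from -0.08 to 0.22 on the right. Those with different first parts correlated from -0.17 to 0.06 and from -0.22 to 0.27. With 3 same-part pairs on each side, these values cannot settle whether the numbers pair the mice. As means over all 20 libraries, taking the longest transcript in place of all exons changed the level per kb from 62.1 to 80.6 CPM for *Scg5*, from 30.6 to 51.2 for *Pcsk2* and from 1264 to 1558 for *Cpe*. Genes called over the whole table rose from 367 to 691 on the left, from 347 to 715 on the right, from 414 to 1041 in the interaction and from 297 to 721 between sides with no filter. They rose from 367 to 552 on the left by DESeq2, from 665 to 1350 in SIT with all 8 libraries, to 1179 with the NT6 mice alone and to 1261 with NT6.304 alone left out, and from 347 to 746 on the right without both TG9.1 mice. When each library was left out in turn, they ran from 355 to 1086 in SIT, from 220 to 945 on the left and from 308 to 643 on the right. In the same fits the enzymes called ran from 0 to 1 in SIT and 0 to 2 on either side, the vesicle genes from 1 to 3, 0 to 3 and 0 to 2, and the cargo genes from 0 to 5, 1 to 7 and 0 to 4, in SIT, left and right.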
